A study of Mus musculus with 60 samples.

Results

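SOX and T-box genes encode DNA-binding transcription factors, and 31 of them carried at least 1 CUT&RUN peak in hippocampal nuclei of exercised or sedentary mice. The members are the genes whose symbol is Sox or Tbx followed by a number, together with Tbr1, Eomes and Mga. They comprised 16 SOX and 15 T-box genes of the 16994 genes with a peak in any list. The rule names 35 genes of the GENCODE M21 mouse annotation, and Sox3, Sox9, Sox15 and Tbx6 had no assigned peak.

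CUT&RUN cuts and sequences the DNA that an antibody marks inside isolated nuclei, here 2 histone marks: H4K8ac, an acetylation of active chromatin, and H3K27me3, a methylation laid down by Polycomb complexes over silent genes. The nuclei came from the hippocampi of male Emx1-NuTRAP mice, which shared that genotype in every group: Cre from the Emx1 gene, active in the excitatory neuron lineage of the cortex and hippocampus and in some astrocytes, switches on tags on nuclei and ribosomes. Pair-housed mice ran voluntarily on a wheel between postnatal days 21 and 41 (exercised), and the sedentary mice stayed in standard cages over the same days. There were 3 arms. In SIT, nuclei and RNA were taken at once from the pooled left and right hippocampi of a mouse, and in left separate and right separate nuclei alone were taken from a single hippocampus. The labels give 4 samples per mark and condition in SIT and 3 in each separate arm, and the 20 IgG control samples have no peak list here.

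Each of the 12 peak lists (mark, arm and condition) stands for the samples of a group and gives positions and an assigned gene, with no signal height. Read depth is unknown from the lists and they hold no replicate values, so that every comparison below is a description without a test. The lists differed in size. The authors dropped exercised H4K8ac libraries with a high false discovery rate, more of them from the separate isolations than from SIT, so the exercised H4K8ac lists can rest on fewer samples than the labels name. How many samples stand behind the other lists is not known from the lists themselves, and those can rest on fewer too. A figure caption of the paper, which sets these peaks beside RNA, names fewer sedentary and fewer exercised mice than the SIT labels. H4K8ac lists held 12168 to 38136 peaks over 24.5 to 80.3 Mb, and H3K27me3 lists 9899 to 25693 peaks over 41.2 to 135.6 Mb. The exercised list was the larger in SIT for both marks (80.3 against 46.4 Mb of H4K8ac, 135.6 against 72.3 Mb of H3K27me3) and in left separate for H3K27me3 (92.4 against 73.9 Mb). It was the smaller in left separate for H4K8ac (25.8 against 65.9 Mb) and in right separate for both (24.5 against 56.1 Mb, 41.2 against 114.5 Mb). List size and condition cannot be told apart, and the part of list size in any difference was not tested. Of 7 excitatory neuron genes, 4 to 7 were listed per H4K8ac list, beside 1 to 2 of 6 inhibitory neuron, 1 to 3 of 6 oligodendrocyte, 1 to 2 of 6 microglial, 2 to 3 of 6 endothelial and 2 to 6 of 6 astrocyte genes. For H3K27me3 the corresponding counts were 2 to 3 excitatory, 3 to 5 inhibitory, 3 oligodendrocyte, 1 to 2 microglial, 3 to 5 endothelial and 3 to 4 astrocyte genes. Of all genes, 30.0 to 63.2% were listed per H4K8ac list and 20.6 to 38.1% per H3K27me3 list.

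SOX factors bind DNA through an HMG box and bend it, and T-box factors bind through the domain that names them. Both families choose cell identity in the embryo, and most members belong to tissues other than the forebrain. In the developing hippocampus Sox2 keeps progenitors dividing, Eomes (also called Tbr2) marks intermediate progenitors, Tbr1 marks young glutamatergic neurons, and Sox4 and Sox11 act as neurons mature.

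The members divided by mark. Counting a gene as listed when at least 1 peak was assigned to it, 7 members had H4K8ac alone (Sox4, Sox8, Sox11, Sox12, Sox30, Mga and Tbr1) and 14 had H3K27me3 alone (Sox1, Sox2, Sox6, Sox10, Sox14, Sox21, Eomes, Tbx1, Tbx2, Tbx3, Tbx4, Tbx10, Tbx20 and Tbx22). A further 10 had both marks in some list (Sox5, Sox7, Sox13, Sox17, Sox18, Tbx5, Tbx15, Tbx18, Tbx19 and Tbx21). H3K27me3 alone thus made up 45.2% of members against 20.1% of all genes with a peak, H4K8ac alone 22.6% against 56.5%, and both marks 32.3% against 23.5%. By assignment, some subfamilies were uniform. All 3 SoxC genes had H4K8ac alone, all 4 listed SoxB genes (Sox1, Sox2, Sox14, Sox21) had H3K27me3 alone, and all 3 SoxF genes had both. Others were divided. Of SoxD, Sox6 had H3K27me3 alone and Sox5 and Sox13 both, and of SoxE, Sox8 had H4K8ac alone and Sox10 H3K27me3 alone. Tbr1, Eomes and Tbx21, relatives within the T-box family, fell into the 3 different classes, and the Tbx1 and Tbx2 subfamilies each held genes with H3K27me3 alone and genes with both.

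**Figure D1:**
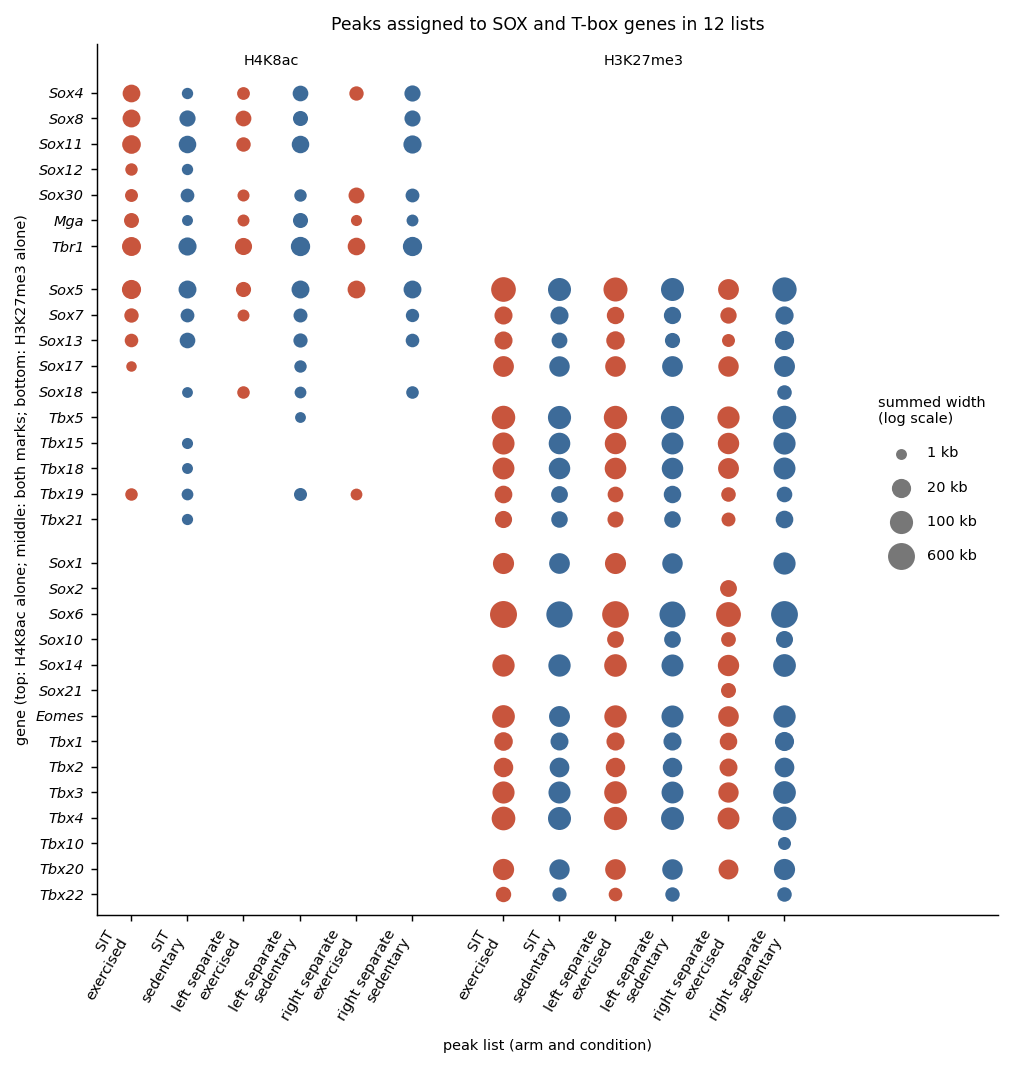
Summed width of the peaks assigned to each of the 31 members (rows) in each of the 12 lists (columns), as circle area on a log scale of kb, red for exercised and blue for sedentary. The upper 7 genes hold circles under H4K8ac alone, the lower 14 under H3K27me3 alone, and the middle 10 under both, where the H3K27me3 circle is the larger in every arm and condition that has both.

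The sequences before the RefSeq start sites of 5 members and at 3 distal acetylated regions are shown because the marks divide on them. Promoter sequences were those of RefSeq (GRCm38.p6), which had 31 promoter windows of 300 bases for 23 of the 31 members, and no entry for Sox7, Sox10, Sox17, Sox18, Tbx2, Tbx3, Tbx5 and Tbx15. Each line gives the 250 bases before the RefSeq start site on the gene's strand, 5′ to 3′, with every CG dinucleotide in capitals. The RefSeq start is that of the gene in GENCODE, which all distances below use, for Tbx18 and Sox14, and lies 23 bases before it for Eomes and 144 bases before it for Sox11. For Tbr1 it lies 1.52 kb after the GENCODE start, so the bases printed for Tbr1 are inside the gene body of GENCODE. They (chr2:61804203-61804452, plus strand) lay within H4K8ac peaks of all 6 lists and no H3K27me3 peak. Eomes (chr9:118477939-118478188, plus strand), Tbx18 (chr9:87731261-87731510, minus strand) and Sox14 (chr9:99876171-99876420, minus strand) were met by H3K27me3 peaks in all 6 lists and by no H4K8ac peak. The window of Sox11 (chr12:27342719-27342968, minus strand) was met by H4K8ac in 1 list.
Tbr1: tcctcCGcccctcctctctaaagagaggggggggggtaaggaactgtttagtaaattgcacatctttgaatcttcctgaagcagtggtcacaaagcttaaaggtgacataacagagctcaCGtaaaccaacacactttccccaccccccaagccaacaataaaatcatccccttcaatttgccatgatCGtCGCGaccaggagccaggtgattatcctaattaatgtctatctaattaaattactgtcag
Eomes: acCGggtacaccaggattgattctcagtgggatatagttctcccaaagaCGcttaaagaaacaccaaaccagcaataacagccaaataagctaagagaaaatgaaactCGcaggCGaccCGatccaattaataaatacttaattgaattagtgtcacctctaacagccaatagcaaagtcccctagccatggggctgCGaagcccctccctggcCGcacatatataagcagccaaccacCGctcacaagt
Tbx18: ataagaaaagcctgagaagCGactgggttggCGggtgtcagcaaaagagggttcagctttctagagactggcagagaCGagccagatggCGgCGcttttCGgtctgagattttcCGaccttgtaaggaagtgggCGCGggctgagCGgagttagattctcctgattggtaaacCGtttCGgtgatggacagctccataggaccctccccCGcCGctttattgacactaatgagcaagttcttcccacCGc
Sox14: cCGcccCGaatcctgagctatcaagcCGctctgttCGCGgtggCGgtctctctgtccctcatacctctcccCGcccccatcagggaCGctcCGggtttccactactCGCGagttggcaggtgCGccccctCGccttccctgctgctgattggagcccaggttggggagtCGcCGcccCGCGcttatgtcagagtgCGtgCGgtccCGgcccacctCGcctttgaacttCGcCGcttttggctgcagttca
Sox11: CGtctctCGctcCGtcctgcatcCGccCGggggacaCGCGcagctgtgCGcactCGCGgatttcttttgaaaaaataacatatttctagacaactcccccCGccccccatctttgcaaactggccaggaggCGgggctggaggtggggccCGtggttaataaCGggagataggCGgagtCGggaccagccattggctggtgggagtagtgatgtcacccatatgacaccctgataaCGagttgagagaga

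Tbr1 and Eomes, close relatives, had 5 and 8 CG dinucleotides in these 250 bases, beside 15 in Tbx18, 17 in Sox11 and 23 in Sox14. Over the whole 300-base windows the ratio of observed to expected CG was 0.453 for Tbr1, 0.607 for Eomes, 0.755 for Tbx18, 0.817 for Sox11 and 0.820 for Sox14. The median was 0.647 over the 31 member windows and 0.384 over all 32851 windows, so all 5 were above the median of all windows. It was 0.772 over the 7 windows of members with H4K8ac alone, 0.754 over the 5 of members with both marks and 0.443 over the 19 of members with H3K27me3 alone, of which 6 belong to Sox6 and 3 to Tbx22. The letters ACAAAG of the SOX core, read on both strands, occurred in 9 of the 31 member windows (29.0%, against 18.7% of all windows), of which 5 were promoters of Sox6, 2 of Tbx22 and 1 each of Sox2 and Tbr1. Counted by gene it was 4 of 23 members (17.4%) against 21.0% of all genes. AACAAT, another SOX core, occurred in 3 windows (9.68% against 10.7%), of Sox6, Tbr1 and Tbx19, and the T-box letters GGTGTGA in 1 window of Sox6 (3.23% against 3.98%). Tbr1 was the 1 member outside Sox6 whose window held both SOX cores.

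The distal regions are stretches of H4K8ac assigned to a member and found again across lists. From each, the middle 200 bases of the part covered in most lists are shown on the gene's strand, again with CG in capitals. The Sox4 stretch (chr13:28959236-28959435, minus strand) lies upstream of the gene and was covered in 5 lists. That of Sox7 (chr14:63923541-63923740, plus strand) was covered in 5 lists, and that of Mga (chr2:119872174-119872373, plus strand) in 4. None of the 3 was met by an H3K27me3 peak.
Sox4: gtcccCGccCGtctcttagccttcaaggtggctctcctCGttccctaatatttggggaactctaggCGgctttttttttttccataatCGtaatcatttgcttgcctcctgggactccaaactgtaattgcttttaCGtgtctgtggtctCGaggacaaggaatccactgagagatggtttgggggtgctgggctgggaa
Sox7: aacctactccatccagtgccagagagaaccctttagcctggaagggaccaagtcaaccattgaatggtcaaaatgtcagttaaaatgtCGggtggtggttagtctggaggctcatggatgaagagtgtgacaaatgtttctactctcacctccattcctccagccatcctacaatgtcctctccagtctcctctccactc
Mga: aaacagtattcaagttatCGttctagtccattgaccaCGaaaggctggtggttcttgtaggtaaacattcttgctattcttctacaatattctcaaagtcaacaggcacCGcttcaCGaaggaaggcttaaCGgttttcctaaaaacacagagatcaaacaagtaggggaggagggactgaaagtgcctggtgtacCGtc

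H4K8ac was listed for 12 exercised and 15 sedentary members in SIT, beside 63.2% and 51.0% of all genes. In left separate it was listed for 9 exercised and 13 sedentary members (30.0% and 60.1% of all genes), and in right separate for 6 and 10 (34.1% and 49.0%). As shares of the 31 members these were 38.7% and 48.4% in SIT, 29.0% and 41.9% in left separate, and 19.4% and 32.3% in right separate, each below the share of all genes, though close to it in SIT sedentary and left exercised. In these bulk lists a mark in fewer nuclei and a weaker mark in each nucleus cannot be told apart. Sox4, Sox5, Sox30, Mga and Tbr1 had H4K8ac in all 6 lists, which is 16.1% of members beside 19.3% of all genes.

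H3K27me3 was listed for more members than H4K8ac in every arm and condition. It was listed for 19 exercised and 19 sedentary members in SIT (38.1% and 22.5% of all genes), 20 and 20 in left separate (30.6% and 27.5%) and 20 and 22 in right separate (20.6% and 35.4%). These counts are 61.3% to 71.0% of the members. In all 6 lists H3K27me3 was present at 17 members, or 54.8%, beside 16.5% of all genes.

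The annotated start site itself lay inside an H3K27me3 peak for 19 exercised and 19 sedentary members in SIT (14.5% and 10.1% of all genes), for 18 and 18 in left separate (11.3% and 10.3%) and for 12 and 20 in right separate (6.86% and 13.7%). For H4K8ac it did so for 3 and 1 members in SIT (25.2% and 10.7% of all genes), 1 and 2 in left separate (6.8% and 18.0%) and 1 and 2 in right separate (8.24% and 15.6%). Tbr1 was the 1 member with its start site in an H4K8ac peak of every list. Sox8 (SIT exercised), Sox30 (SIT exercised and right sedentary) and Mga (left sedentary) made up the rest. These counts use 1 start per gene. Counting any annotated transcript start, a choice made after seeing the data, the H4K8ac counts were 5 and 1 in SIT (32.0% and 15.6% of all genes), 1 and 3 in left separate (10.0% and 24.6%) and 2 and 3 in right separate (11.6% and 21.1%). The members added were Sox5, with 2 of 12 starts in SIT exercised and in both right separate lists, and Sox13, with 2 of 5 in SIT exercised and left sedentary. For H3K27me3 the counts were 21 and 20 in SIT (17.1% and 11.8%), 21 and 21 in left separate (13.5% and 12.2%) and 12 and 22 in right separate (8.46% and 16.2%).

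**Figure D2:**
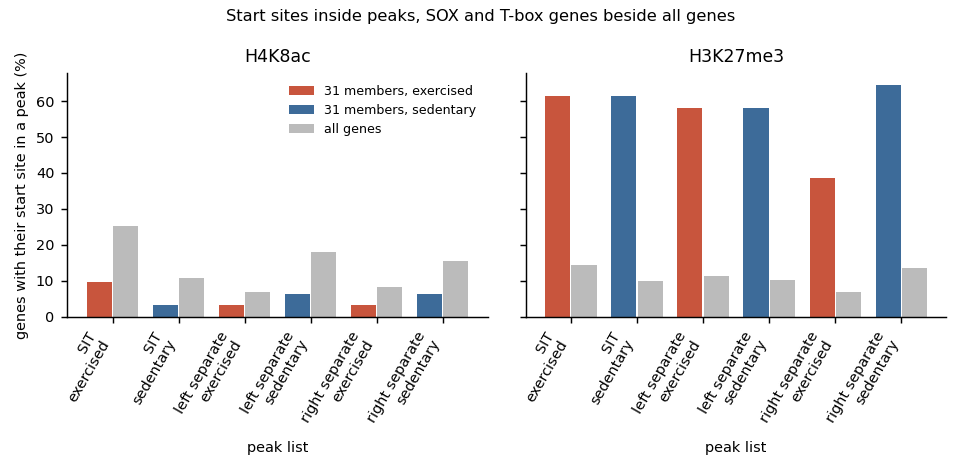
Percent of the 31 members (red exercised, blue sedentary) and of all 16598 genes placed in the annotation (grey) whose start site lay inside a peak, for each list. Member bars stand below the grey bars in all 6 H4K8ac lists (3.23% to 9.68%) and above them in all 6 H3K27me3 lists (38.7% to 64.5%).

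Tbr1, a regulator of glutamatergic neuron identity (chr2:61802930-61814114 in GRCm38, plus strand), had the widest H4K8ac of any member, 93.2 kb summed over the 6 lists, and no H3K27me3. The peaks assigned to it summed to 18.3 kb exercised and 13.4 kb sedentary in SIT, 9.33 and 20.7 kb in left separate, and 11.1 and 20.3 kb in right separate. Of its gene window, meaning the gene body and 5 kb on either side, 78.0% and 52.6%, 44.0% and 87.9%, and 52.3% and 74.0% were covered in the same order. Exercised was above sedentary in SIT and below it in both separate arms, as were the total sizes of the H4K8ac lists. The merged region around the gene ran from 1.32 kb before to 18.3 kb after the start site, and 4.57 kb of it was covered in all 6 lists. These bases formed 2 stretches, 1.74 kb from 0.138 kb before to 1.597 kb after the start site and 2.83 kb from 9.49 to 12.3 kb after it. Of 60 merged H4K8ac regions assigned to members this was the 1 found in every list.

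Eomes (chr9:118478212-118486132, plus strand), the Tbr1 relative of intermediate progenitors, showed the reverse pattern. H3K27me3 peaks assigned to it summed to 82.8 and 38.7 kb in SIT, 71.4 and 62.3 kb in left separate, and 34.2 and 70.6 kb in right separate (exercised, then sedentary), and no H4K8ac peak was assigned to it. Its window was covered to 100% in 5 lists and to 93.2% in right exercised, where 4 peaks stood in place of 1. Tbx21, the remaining gene of this group and a factor of T lymphocytes, had H3K27me3 in all 6 lists, at 9.40 and 7.49 kb, 6.42 and 7.73 kb, and 3.06 and 11.1 kb. Its 1 H4K8ac peak, of 1.13 kb in SIT sedentary, lay 11.1 to 12.2 kb upstream and overlapped no H3K27me3 peak.

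**Figure D3:**
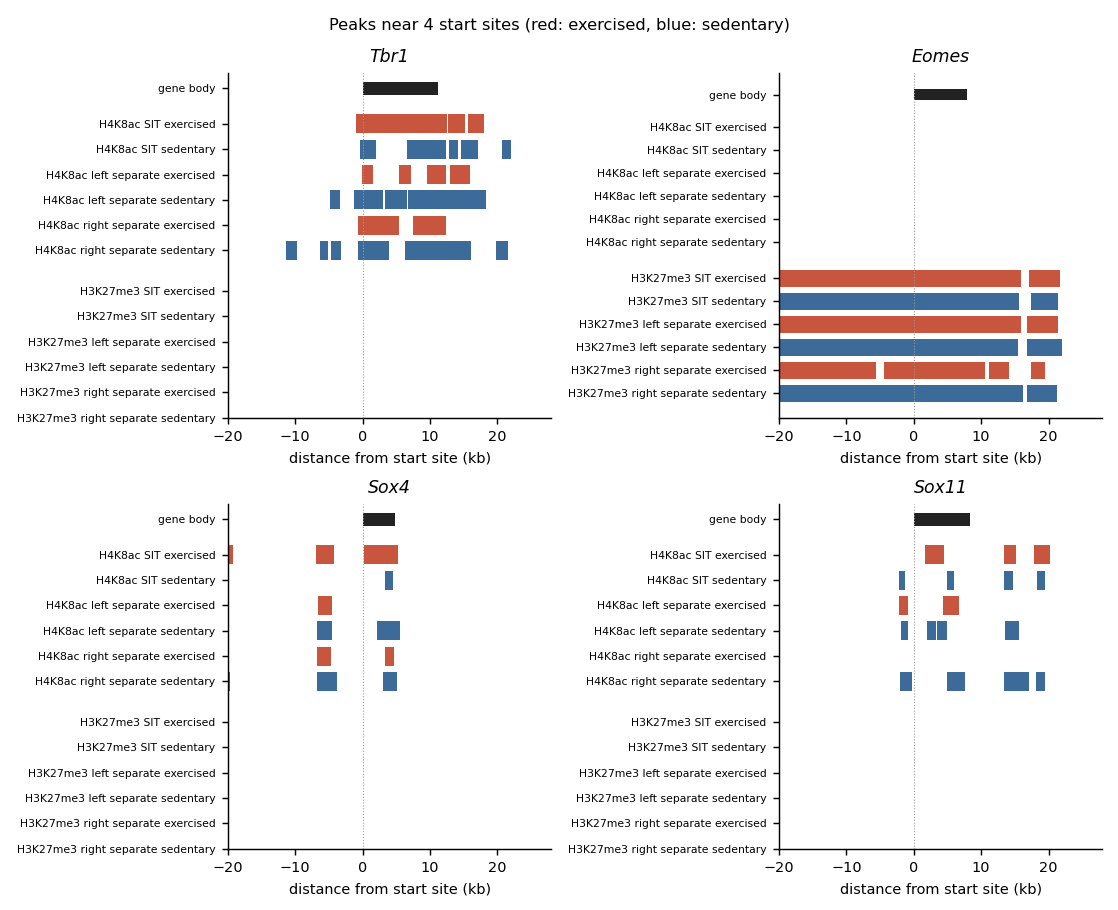
Peaks within 20 kb before and 28 kb after the start sites of Tbr1, Eomes, Sox4 and Sox11 in the 12 lists, with distance from the start site in kb, the gene body in black, red for exercised and blue for sedentary. Tbr1, Sox4 and Sox11 show H4K8ac bars and no H3K27me3 bar, Eomes shows H3K27me3 bars across its whole body and no H4K8ac bar, and Sox11 has none in right exercised.

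The SoxC genes, which act in newly formed neurons, had H4K8ac without H3K27me3. Sox4 peaks summed to 11.6 and 1.19 kb in SIT, 2.05 and 5.62 kb in left separate, and 3.52 and 6.68 kb in right separate (exercised, then sedentary). Those of Sox11 summed to 16.4 and 10.9 kb, 3.67 and 10.7 kb, and 0 and 13.7 kb. Sox11 was therefore absent from right exercised, and otherwise both genes again had the larger width on the side of the larger list. The Sox4 acetylation lay in 3 merged regions. That from 0.208 to 5.52 kb after the start site was found in 5 lists and missing in left exercised, and that from 3.83 to 6.98 kb upstream was found in 5 lists and missing in SIT sedentary. The other, 4.04 kb long and 19.2 to 23.2 kb upstream, was found in SIT exercised and right sedentary alone. Sox11 had 12 merged regions, and the 1 nearest its start site, 0.334 to 2.23 kb upstream, was found in 4 lists. The Sox11 region found in the most lists, 5, lay inside the gene, 3.42 to 7.65 kb after the start site. Other Sox11 regions in 4 lists lay 13.3 to 17.1 kb after the start site and 253.9 to 256.3 kb upstream. Sox12 had 1 region, 1.79 kb in SIT exercised and 1.18 kb in SIT sedentary, and none in the separate arms. This region lay outside the Sox12 window, of which H4K8ac covered 0% in every list, so its place here rests on the assignment.

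The SoxB genes carried wide H3K27me3, although the gene assignment hid it for Sox2 and Sox21. Sox2 was listed in right exercised alone, with 8.44 kb, yet H3K27me3 covered 100% and 91.5% of its window in SIT, 95.9% and 99.98% in left separate, and 66.2% and 100% in right separate. In the other 5 lists the peak over the start site, 15.9 to 52.9 kb wide, was assigned to a transcript with no symbol. Sox21, a SoxB2 repressor, was likewise listed in right exercised alone (4.40 kb), since the wide peak of the other lists (21.0 to 37.7 kb) was assigned to Gm4675, and its window was covered to 87.1% in right exercised and 98.4% to 100% elsewhere. In right exercised neither start site lay in a peak: the Sox2 start stood in a gap from 0.938 kb before to 3.14 kb after it, and the Sox21 start in a gap from 0.177 kb before to 1.18 kb after.

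Sox1, a neural progenitor factor, had no assigned peak in right exercised, where its window was still covered to 97.3% but its start site lay outside any H3K27me3 peak, as it did in no other list, and its peaks summed to 32.7 to 66.9 kb in the other lists. Sox14, a gene of particular interneuron groups, had its window covered to 100% in all 6 lists, with 69.4 and 70.0 kb, 78.9 and 61.5 kb, and 46.1 and 84.1 kb of assigned H3K27me3. Among members it was the 1 with complete coverage in every list. Sox3, the third SoxB1 gene, was not a member, but its start site lay in H3K27me3 peaks assigned to Gm14662 in SIT exercised (10.3 kb) and left exercised (3.16 kb).

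All the SoxD genes carried H3K27me3 in all 6 lists. Sox6 (chr7:115470872-116038796, minus strand), which acts in interneurons and glia, had the most H3K27me3 of any member, 2738 kb over the 6 lists, and no H4K8ac. It held 45 and 51 peaks in SIT, 72 and 62 in left separate, and 53 and 67 in right separate, summing to 606.7 and 440.2 kb, 526.4 and 385.6 kb, and 211.9 and 567.7 kb. Its window, 577.9 kb long, was covered to 86.5% and 54.2%, 67.2% and 54.2%, and 29.2% and 70.6%. The exercised share was thus the larger in SIT and left separate and the smaller in right separate, as was the total size of the H3K27me3 lists.

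Sox5 (chr6:143828425-144781977, minus strand), which acts in projection neurons, was the 1 member where peaks of both marks overlapped, in SIT exercised and right sedentary. Such overlaps were not counted over all genes, so whether 1 member is few or many is not known. Neither overlap reached 50% of both peaks, and with the widest 50% of each list that in SIT exercised was absent. Its H3K27me3 summed to 201.2 and 94.0 kb, 149.4 and 94.1 kb, and 37.5 and 165.3 kb, and its H4K8ac to 19.5 and 12.3 kb, 4.66 and 12.4 kb, and 11.9 and 12.05 kb (SIT, left and right separate, exercised then sedentary). The marks took different stretches of the 953.6 kb gene. In tiles of 100 kb from the annotated start, 69.3% of the H4K8ac bases of the 6 lists fell between 500 and 700 kb, against 4.67% of the H3K27me3 bases. Between 100 and 500 kb no list had H4K8ac and each tile had H3K27me3 in 4 to 6 lists, while from 600 to 700 kb all 6 lists had H4K8ac and none had H3K27me3. The zone from 500 to 700 kb was chosen after its values were seen. The RefSeq start of Sox5 lies 834.9 kb after the GENCODE start used here, so this zone is upstream of the RefSeq start. Sox5 has 12 annotated transcript starts, and these distances refer to the outermost alone.

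**Figure D4:**
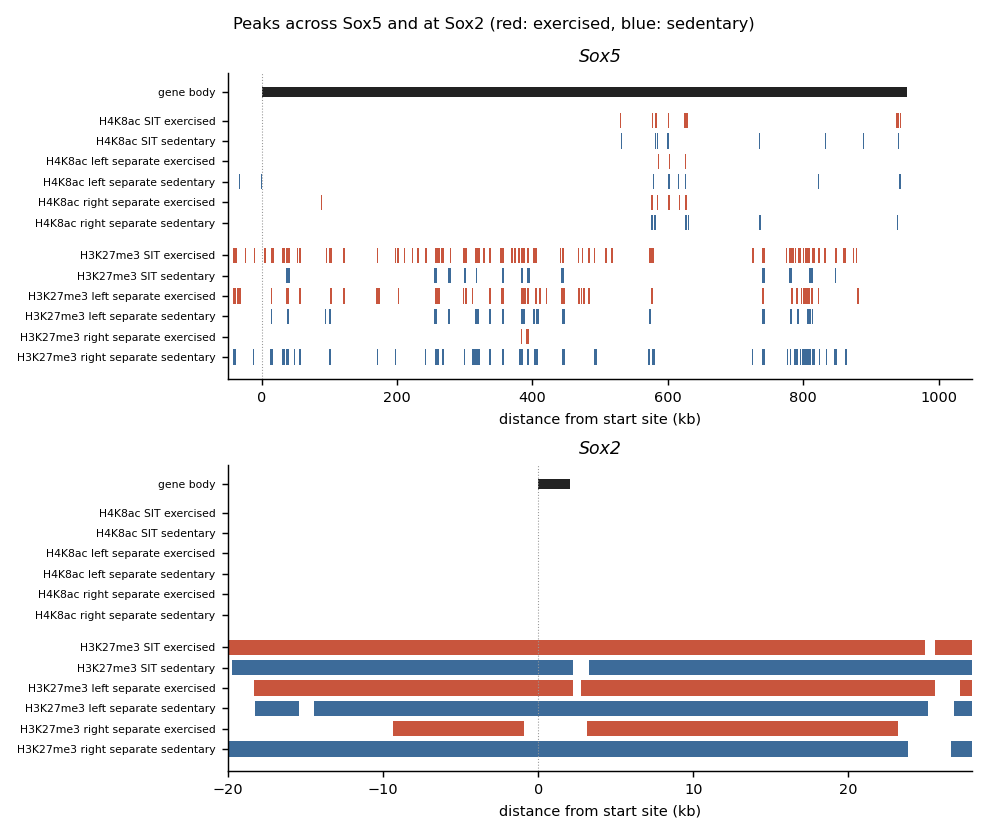
Peaks of the 12 lists across Sox5 (upper) and around Sox2 (lower) by distance from the start site in kb, red for exercised and blue for sedentary, with the gene body in black. At Sox5 the H4K8ac bars gather between 500 and 700 kb and near the far end while H3K27me3 bars lie mostly elsewhere, and at Sox2 the H3K27me3 bars run over the gene in 5 lists and leave a gap around the start in right exercised.

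Sox13, the remaining SoxD gene, had H3K27me3 in all 6 lists (13.1 and 5.81 kb, 15.3 and 4.65 kb, 2.17 and 20.4 kb). Its H4K8ac was 2.68 and 5.54 kb in SIT, 0 and 3.36 kb in left separate, and 0 and 2.71 kb in right separate. It was absent from the exercised H4K8ac lists of both separate arms. The H4K8ac lay 26.0 to 42.3 kb after the annotated start, apart from 1 peak upstream, and overlapped no H3K27me3 peak assigned to it in the same arm and condition.

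Among SoxE genes, which act in glia, Sox9 had no assigned peak of either mark. Sox10, of oligodendrocytes, had H3K27me3 of 8.15 and 8.03 kb in left separate and of 4.04 and 8.98 kb in right separate. It was not listed in SIT, although 60.9% and 38.3% of its window was covered there and its start site lay inside a peak that was not assigned to it. Sox8 had H4K8ac of 12.2 and 6.68 kb, 5.80 and 4.51 kb, and 0 and 6.48 kb. It was 1 of the 2 members, with Sox30, whose window was covered more in the exercised list of left separate (12.7% against 7.08%).

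SoxF genes belong to endothelium, and for Sox7 and Sox17 H3K27me3 lay at the gene while H4K8ac lay at a distance. Sox17 had H3K27me3 over 94.8% to 97.5% of its window in the 6 lists, with sums of 37.2 and 32.4 kb, 34.4 and 36.4 kb, and 32.6 and 39.0 kb. Its H4K8ac was 0.839 kb in SIT exercised and 1.77 kb in left sedentary, both within 73.5 to 75.3 kb upstream. Sox7 had H3K27me3 of 13.03 and 13.02 kb, 10.2 and 9.76 kb, and 7.03 and 14.005 kb. Its H4K8ac of 3.56 and 2.94 kb, 1.49 and 3.10 kb, and 0 and 2.45 kb formed 1 region, 18.2 to 21.9 kb upstream, whose middle is printed above. Sox18 was the exception, with H3K27me3 in right sedentary alone (3.77 kb over the start site). Its assigned H4K8ac lay 10.8 to 13.6 kb after the start site, past the end of the 1.805 kb gene, in a stretch annotated as 3′ UTR. It summed to 0 and 0.955 kb, 1.86 and 1.41 kb, and 0 and 1.9 kb. H4K8ac peaks not assigned to Sox18 covered 9.25% of its window in SIT exercised, 5.28% in left sedentary and 7.20% in right sedentary. Coverage was 0% in the other lists.

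The Tbx2 group, T-box genes of limb and heart, carried some of the widest H3K27me3. Tbx5 had 116.8 and 99.5 kb in SIT, 109.9 and 100.4 kb in left separate, and 65.7 and 118.5 kb in right separate. Tbx4 had 127.4 and 94.3 kb, 104.2 and 90.1 kb, and 58.2 and 133.3 kb. Both ranked with Sox6, Sox5 and Sox14 among the 5 members with most H3K27me3. Tbx2 and Tbx3 had H3K27me3 in all 6 lists, over 82.9% to 99.03% and 98.0% to 100% of their windows. In this group the 1 H4K8ac peak was that of Tbx5 in left sedentary, 0.967 kb inside an intron.

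In the Tbx1 group, which acts in pharyngeal, heart and trunk mesoderm, Tbx1, Tbx15, Tbx18 and Tbx20 had H3K27me3 in all 6 lists. Tbx15 had 63.2 and 51.4 kb, 48.3 and 58.5 kb, and 47.8 and 66.5 kb. Tbx18 had 58.5 and 49.3 kb, 51.5 and 49.1 kb, and 38.1 and 59.7 kb. Each also had 1 H4K8ac peak in SIT sedentary, of 1.08 kb at 307.5 to 308.6 kb from the Tbx15 start and of 1.01 kb at 112.9 to 113.9 kb from the Tbx18 start. Tbx22 was listed in 5 lists (2.75 to 5.08 kb) and Tbx10 in right sedentary alone (2.21 kb). Tbx10 had no assigned H4K8ac, yet 9.29% of its window was covered by H4K8ac in SIT exercised, by a peak not assigned to it.

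Tbx19, a pituitary factor, had H3K27me3 of 11.3 and 8.25 kb, 5.71 and 10.6 kb, and 3.79 and 5.47 kb. Its H4K8ac was 1.84 and 1.39 kb in SIT, 0 and 2.21 kb in left separate, and 1.41 and 0 kb in right separate, all in 1 region 27.2 to 29.6 kb from the start site and past the end of the gene. The direction therefore differed between the separate arms at the same place.

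Mga, whose protein joins a T-box with a MAX-binding domain in a Polycomb complex, had H4K8ac of 4.36 and 1.005 kb, 1.515 and 4.51 kb, and 1.08 and 1.46 kb, and no H3K27me3. A region 22.4 to 25.8 kb upstream held H4K8ac in 5 lists, and in SIT sedentary the peak lay 31.6 to 32.6 kb upstream. The 13 other genes of that complex had 3 to 6 members per H4K8ac list and 1 to 4 per H3K27me3 list, beside 30.0 to 63.2% and 20.6 to 38.1% of all genes. E2f6 and Rybp had H4K8ac in all 6 lists, and Rybp also had H3K27me3 in all 6. Sox30, a germ cell gene, also had H4K8ac in all 6 lists (1.55 to 6.12 kb) and no H3K27me3. Of 6 genes known to act downstream of Tbr1, 4 to 6 had H4K8ac and 1 to 3 had H3K27me3, and Grin2b, Fezf2, Bcl11b and Nfia had H4K8ac in every list. The other 2, Reln and Auts2, had H3K27me3 in 6 and 5 lists and H4K8ac in 1 and 4. This list was not divided by whether Tbr1 raises or lowers a gene, so its counts do not measure the activity of Tbr1. Of 6 SOX partner genes, 0 to 2 had H4K8ac and 3 had H3K27me3 per list. The shares of all genes given for the Mga complex also stand beside these lists of 6 genes, in which 1 gene is a large share.

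Exercised and sedentary lists were then compared within each arm, calling a gene gained when it was in the exercised list alone and lost when in the sedentary list alone. For H4K8ac in SIT, 1 of 16 listed members was gained (Sox17, 6.25% beside 27.5% of all genes) and 4 were lost (Sox18, Tbx15, Tbx18 and Tbx21, 25.0% beside 10.1%). The direction of this difference depended on which peaks were counted. It was 2 gained and 1 lost with the same number of widest peaks in every list of the mark or with the widest 50% of each, 2 and 0 with start sites inside peaks, and 1 and 0 with promoter peaks alone. The shares of all genes gained or lost at such settings, here and in the separate arms, were not computed. Whether members differ from all genes there is therefore not known. In left separate 0 of 13 were gained (3.58% of all genes) and 4 were lost (Sox13, Sox17, Tbx5 and Tbx19, 30.8% beside 51.9%). With the same number of widest peaks 2 were gained and 2 lost there, so that losses no longer outnumbered gains. In right separate 1 of 11 was gained (Tbx19, 9.09% beside 9.14%) and 5 were lost (Sox7, Sox8, Sox11, Sox13 and Sox18, 45.5% beside 36.7%). No member was gained in more than 1 arm, and Sox13 (both separate arms) and Sox18 (SIT and right separate) were lost in more than 1. Sox18 was lost in SIT by assignment, while 9.25% of its window was covered in SIT exercised, by a peak not assigned to it, and 0% in SIT sedentary. The right separate share gained was near that of all genes.

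For H3K27me3 no member was gained or lost in SIT, where 41.4% of all listed genes were gained and 1.02% lost, nor in left separate, where 18.5% were gained and 9.13% lost. The count of 0 depended on which peaks were used: with the widest 50% of each list 4 members were gained in SIT and 1 was lost in left separate, with promoter peaks alone 1 was gained in each of these arms, and with the same number of widest peaks in every list 1 was lost in left separate. The shares of all genes given above belong to the main count and were not computed for these alternatives. In right separate 2 of 24 were gained (Sox2 and Sox21, 8.33% beside 3.12%) and 4 were lost (Sox1, Sox18, Tbx10 and Tbx22, 16.7% beside 43.6%). These became 3 gained and 3 lost with the same number of widest peaks, 2 and 7 with promoter peaks alone, and 0 and 8 with start sites inside peaks. Again no share of all genes was computed for these alternatives, and the right exercised list is the smaller of the pair. Peaks assigned to Sox1, Sox2 and Sox21 overlapped a peak of the other condition that was assigned elsewhere, so that 3 of these 6 changes were of assignment. Sox18, Tbx10 and Tbx22 were covered to 31.9%, 13.2% and 11.98% in right sedentary and to 0% in right exercised.

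Coverage of the gene windows, chosen after seeing the data at every width of window, gave a measure that does not use the assignment. For H4K8ac the exercised list covered more bases at 8 of 10 covered members in SIT (79.6% of all genes), 2 of 11 in left separate (11.9%) and 3 of 9 in right separate (18.9%). For H3K27me3 it covered more at 15 of 22 in SIT (86.6%), 9 of 22 in left separate (63.3%) and 0 of 24 in right separate (4.05%). At members with coverage in both conditions the median ratio of exercised to sedentary H3K27me3 bases was 1.11 in SIT, 1.0 in left separate and 0.710 in right separate, against 1.34, 1.09 and 0.532 over all genes. The measure has a ceiling, since windows covered to their whole length in both conditions cannot differ. This held for 4 of the 22 members in SIT (Eomes, Sox1, Sox14 and Tbx3), for 5 of 22 in left separate (the same and Sox21) and for 1 of 24 in right separate (Sox14). With windows of 20 kb on either side, the exercised list covered more H3K27me3 bases at 21 of 22 members in SIT (91.8% of all genes), 12 of 22 in left separate (65.8%) and 0 of 24 in right separate (3.79%). For H4K8ac the medians were 1.59, 0.714 and 0.907, over 8, 6 and 4 members, against 1.596, 0.580 and 0.611.

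**Figure D5:**
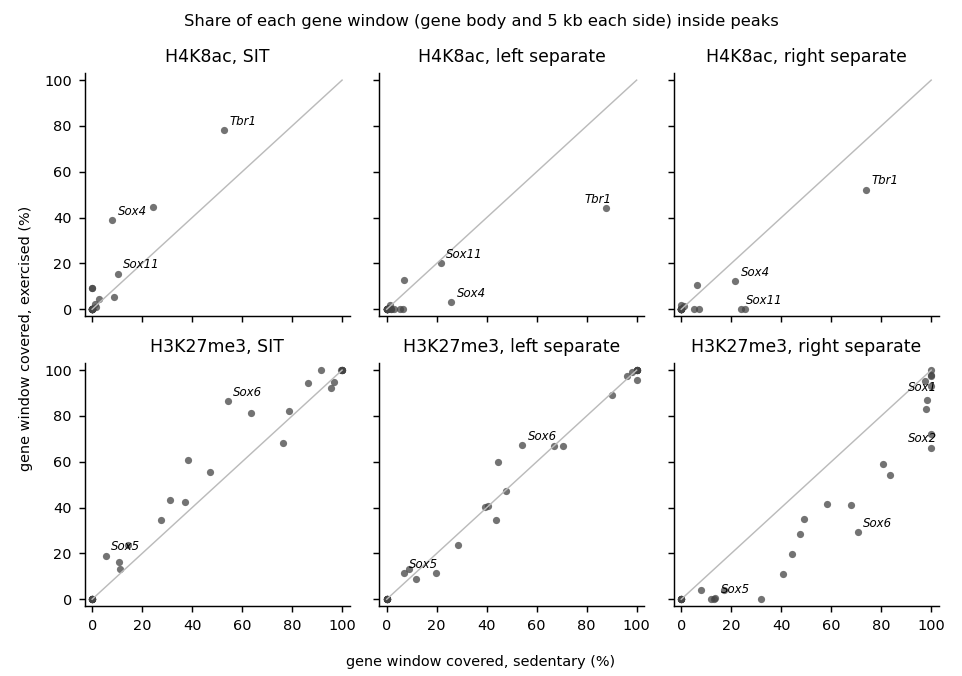
Percent of each member's window (gene body and 5 kb on either side) inside peaks in the exercised list (vertical axis) against the sedentary list (horizontal axis), by mark and arm, 1 point per member and the grey line at equal coverage. Tbr1 lies above the line in SIT and below it in both separate arms for H4K8ac, and for H3K27me3 in right separate no point lies above the line.

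The overlap of lists over the members' windows was set beside that of the whole lists. The bases shared by exercised and sedentary H3K27me3 lists, divided by the bases in either, were 0.632 in SIT, 0.664 in left separate and 0.476 in right separate over the member windows, against 0.478, 0.536 and 0.330 over the whole lists. For H4K8ac the values were 0.314, 0.259 and 0.303 against 0.251, 0.200 and 0.221. Sox5 and Sox6 made up 63.0% of the length of the member windows. Over the windows of the 29 other members the H3K27me3 values were 0.853, 0.868 and 0.692, and the H4K8ac values 0.376, 0.300 and 0.356. Between arms, the H3K27me3 values over the member windows were also above those of the whole lists in all 6 pairs of lists of 1 condition, while for H4K8ac they were above in 3 and below in 3. The 3 below were SIT with left separate, exercised (0.194 against 0.200), left with right separate, exercised (0.186 against 0.211), and left with right separate, sedentary (0.283 against 0.306). Without Sox5 and Sox6 these became 0.258, 0.202 and 0.386, of which the second alone was below the whole lists. Of the 159 merged H3K27me3 regions assigned to members, 41 (25.8%) were found in all 6 lists, 18 of them at Sox6. Regions merged in the same way for all genes were found in all 6 lists in 16.1% of 27994 cases, and those of the members without Sox6 in 23 of 121 (19.0%). Member H3K27me3 peaks were wider in every list, with medians of 3058 to 4753 bp against 2861 to 4375 bp for all peaks. Since 1 bp of overlap merges peaks, wider peaks merge more readily, and the part of width in these shares was not tested. The 6-list H4K8ac region at Tbr1 was 1.67% of its mark's member regions, beside 5.83% of 63952 regions of all genes.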

How the data were processed

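The 60 samples were CUT&RUN-seq libraries (H4K8ac, H3K27me3 or IgG), grouped from their labels by antibody, condition and arm. According to the methods and processing notes of the study, the authors aligned reads with Bowtie2 2.4.1, checked them with FastQC 0.11.9, called peaks with SEACR (stringent) and annotated them with ChIPseeker 1.8.6 on mm10 (GRCm38), with promoters reaching 3 kb on either side of a start site. Exercised H4K8ac libraries with a high false discovery rate, from the separate isolations and SIT, were left out by them. How libraries were combined is not given in the sources used here, so a list may rest on fewer samples than its labels name.

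The deposited tables hold, per the file headers, other values than counts: the bounds and width of each peak in bp, with an annotation, a transcript and a symbol. Coordinates are printed as deposited (the smallest start is 0), and width is end minus start plus 1. A gene was listed with at least 1 assigned peak, overlap meant at least 1 bp, and windows reached 5 kb beyond the gene in GENCODE M21, where 97.7% of the 16994 symbols had 1 entry. Regions are assigned peaks of a mark merged across lists. RefSeq promoters hold 250 bases before and 50 after a start.

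No test was run, since each group has 1 peak list. Signal and reads of single libraries were not analysed here. Members and gene lists were chosen with earlier results of these data known. Values in every list are given for Sox2, Sox4, Sox5, Sox6, Sox9, Sox10, Sox11, Tbr1, Eomes and Mga, for members with both marks in an arm and condition, for members gained or lost alike in 2 arms, and for the 5 with the widest sum per mark. Alternatives were promoter peaks alone, start sites inside peaks, no distal intergenic peaks, the widest 50% per list, the same number of widest peaks per list, a reciprocal overlap of 50%, other windows and members with overlapping peaks left out. Of these, the last was chosen after seeing the data, as was the comparison of window coverage as a whole, with windows of 5, 1 and 20 kb, the values without Sox5 or Sox6, and any transcript start in place of 1 per gene. Interval functions were tested on simulated data and gave the base-by-base count in 1000 of 1000 queries. Python 3.11.15, numpy 2.4.6, pandas 2.3.3 and matplotlib 3.10.9 were used.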

Additional observations from a re-analysis of the deposited data

Results flagged for a closer look

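Sox17 and Tbx19 went in opposite directions in different arms for H4K8ac. Sox17 was in the exercised list alone in SIT, with 1 peak of 839 bp, and in the sedentary list alone in left separate, with 1 peak of 1773 bp. Tbx19 was in the sedentary list alone in left separate, with 1 peak of 2207 bp, and in the exercised list alone in right separate, with 1 peak of 1408 bp. For each gene the peaks overlapped one another, so that the same stretch was present in a different condition in each arm. The difference between arms was not tested, and each value is 1 pooled list.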

How the results depend on the processing

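Of the alternatives to 38 counts of members, 77 gave a value within 1.5 times the reported count and 41 did not; most of these counts are below 6, and the cause was not tested. With promoter peaks alone, H4K8ac members lost were 0 in SIT and 3 in right separate, gained 1 in left and 0 in right separate, and listed throughout 1, and H3K27me3 members gained were 1 in SIT and 1 in left separate and lost 7 in right separate. With distal intergenic peaks left out, H4K8ac members gained were 0 in SIT and 0 in right separate, lost 1 in SIT and listed throughout 2. With start sites inside peaks, H4K8ac members gained were 2 in SIT and 0 in right separate, lost 0, 1 and 1 in SIT, left and right separate, and listed throughout 1, and H3K27me3 members in right separate were 0 gained and 8 lost. With the widest 50% of each list, H4K8ac members gained were 2, 1 and 0 in SIT, left and right separate, lost 1 in SIT and listed throughout 2, H3K27me3 members were 4 gained in SIT and 1 lost in left separate, and overlap of the marks in SIT exercised was 0. With the same number of widest peaks in every list of a mark, H4K8ac members gained were 2 in SIT and 2 in left separate, lost 1 in SIT and 2 in left separate and listed throughout 2, and H3K27me3 members lost in left separate were 1. A reciprocal overlap of 50% left 0 members with both marks in SIT exercised and 0 in right sedentary. Leaving out members whose peak overlaps the other condition left 0 H3K27me3 members gained in right separate. With windows reaching 1 or 20 kb, 1 and 0 members had more H4K8ac in the exercised list of left separate. Counting any transcript start, 5 members in SIT exercised and 2 in right exercised had a start in an H4K8ac peak. Apart from any transcript start and H3K27me3 windows of 20 kb, these counts were not set beside the share of all genes at the same setting.

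No paired analysis was possible because each peak list used here stands for a whole group, and for the same reason no replicate was left out; values of single libraries were not analysed here. The lists carry no depth, and an absent gene is one with no peak past the caller's threshold.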
